A study of Mus musculus with 21 samples.

Results

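The MYC network was described here as 8 genes: Myc, Mycn and Mycl, which encode the MYC transcription factors, Max, their shared partner, and Mxd1, Mxd4, Mxi1 and Mnt, which encode the competing partners of MAX. They were found by gene symbol in the deposited table, 8 of its 56980 genes, and all 8 passed the filter on low counts that left 18192 genes for testing. The group was chosen by measured values of these data: the difference in Myc between inhibitor and control libraries and its change of sign after 4 h. That contrast used the control as well as the inhibitor libraries, so all values of Myc are given as a description, with no test. For the 7 others, found by name, values that involve an inhibitor library are a description too, and tests cover only the control time course.

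The libraries came from cumulus-oocyte complexes of wild-type mice. Such a complex is an oocyte with the cumulus granulosa cells that surround it in the follicle, and it can be matured in culture. The sample labels give epidermal growth factor (0.02%) and 5% serum for all groups, START included. START complexes were sampled at 0 h. CTL complexes were cultured with the solvent DMSO and PCI complexes with 10 µM of a proprotein convertase inhibitor, each for 4, 8 or 12 h. Such convertases, furin among them, activate many secreted precursors by cleavage. There were 7 groups of 3 libraries, 21 in total, labelled as biological replicates; the number of animals or complexes per library is not given in the sources used here, and the p-values measure the spread between these libraries. These are bulk libraries, so fewer cells of a type and less RNA per cell cannot be told apart.

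MYC proteins bind DNA only as dimers with MAX, mostly at a short palindrome called the E-box, and raise transcription of genes for ribosome assembly, nucleotide and polyamine synthesis and cell division. MXD1, MXD4, MXI1 and MNT also pair with MAX, bind the same E-boxes and recruit SIN3 and histone deacetylases, which lowers transcription. Myc is an early response gene with a short-lived mRNA, so its level can follow growth factor signals closely, and the balance between MYC and the MXD proteins often shifts when cells leave the cell cycle.

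On mm39, Myc lies on chromosome 15 at 61857240 to 61862223, Mycn on chromosome 12 at 12986094 to 12991915 and Mycl on chromosome 4 at 122889445 to 122896278. Max lies on chromosome 12 at 76984043 to 77008975, Mxd1 on chromosome 6 at 86624024 to 86646143 and Mxd4 on chromosome 5 at 34331227 to 34345064. Mxi1 spans 53298949 to 53364241 on chromosome 19, and Mnt spans 74721746 to 74736551 on chromosome 11. All are protein-coding genes, and the positions are those of whole genes in the deposited table.

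Upstream sequence was available from RefSeq (GRCm38.p6) for 7 of the 8 genes, Myc not among them. The 250 bases before the start site were searched on both strands for 5 motifs: the E-box CACGTG, the E2F motif as TTTCGCGC or TTTGGCGC, the TCF/LEF motif CTTTGAT, the SMAD motif GTCTAGAC and the cAMP response element TGACGTCA. Shown are the windows of the 4 genes that the results below turn on beside Myc and Max: both MYC paralogs that fell, and both repressor genes that were low at 4 h. They are printed 5′ to 3′ on the gene's strand, with motif matches in capitals. On GRCm38.p6 they are chr4:122995681-122995930 (plus strand) for Mycl, chr12:12941837-12942086 (minus strand) for Mycn, chr11:74830674-74830923 (plus strand) for Mnt and chr5:34187711-34187960 (minus strand) for Mxd4.
Mycl: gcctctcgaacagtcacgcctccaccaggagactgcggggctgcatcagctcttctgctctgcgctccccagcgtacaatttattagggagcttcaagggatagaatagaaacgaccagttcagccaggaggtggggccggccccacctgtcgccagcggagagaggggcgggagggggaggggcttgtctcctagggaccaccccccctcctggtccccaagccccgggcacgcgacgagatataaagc
Mycn: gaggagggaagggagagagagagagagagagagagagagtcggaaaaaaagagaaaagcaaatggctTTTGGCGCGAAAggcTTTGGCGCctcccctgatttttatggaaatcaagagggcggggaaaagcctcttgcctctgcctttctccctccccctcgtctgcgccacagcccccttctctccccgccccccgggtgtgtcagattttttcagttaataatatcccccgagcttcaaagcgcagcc
Mnt: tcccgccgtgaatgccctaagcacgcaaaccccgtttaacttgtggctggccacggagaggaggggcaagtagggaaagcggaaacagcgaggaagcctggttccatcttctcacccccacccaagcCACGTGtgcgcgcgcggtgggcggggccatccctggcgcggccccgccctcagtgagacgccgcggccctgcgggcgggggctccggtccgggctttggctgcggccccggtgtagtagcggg
Mxd4: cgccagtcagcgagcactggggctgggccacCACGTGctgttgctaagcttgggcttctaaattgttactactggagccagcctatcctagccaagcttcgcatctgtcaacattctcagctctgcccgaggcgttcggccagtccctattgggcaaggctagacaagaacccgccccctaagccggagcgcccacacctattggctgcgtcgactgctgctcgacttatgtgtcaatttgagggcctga

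The Mycn window held 3 E2F matches, which began 183, 179 and 168 bases before the start site; the first and second overlap. Of 32851 windows of the same length, 0.654% held an E2F match. An E-box began 123 bases before the start of Mnt and 219 bases before that of Mxd4, and 6.02% of the windows held one. None of the 5 motifs was found in the window of Mycl, Max or Mxd1 or in the 3 windows of Mxi1. The TCF/LEF, SMAD and cAMP response motifs occurred in 3.21%, 0.167% and 1.55% of the windows. A match is a string of letters, not a measured binding site.

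Before culture the 3 MYC genes were all present, and on a scale per length Mycl stood highest. In CPM (library-scaled read counts) per kb of exon (GENCODE M21 exon lengths), START levels were 56.0 ± 20.2 for Mycl, 43.3 ± 4.46 for Myc, 33.9 ± 4.70 for Max and 11.8 ± 2.56 for Mycn (SD, n = 3). The repressor genes followed with 18.7 ± 8.24 for Mxd1, which stood above Mycn, 9.12 ± 2.56 for Mxi1, 2.98 ± 0.34 for Mxd4 and 1.92 ± 0.75 for Mnt. The libraries of Mycl and Myc overlapped, so their order at START did not exceed the spread, and those of Max lay just below both. The level per kb summed over the 3 MYC genes was 111 ± 26.4 before culture; in CTL it was 35.5 ± 3.96 by 4 h, 18.9 ± 0.41 by 8 h and 26.0 ± 6.44 by 12 h. The PCI sums were 16.8 ± 1.23, 23.0 ± 0.73 and 36.9 ± 8.82, so the CTL sum was lowest at 8 h and the PCI sum at 4 h.

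**Figure D1:**
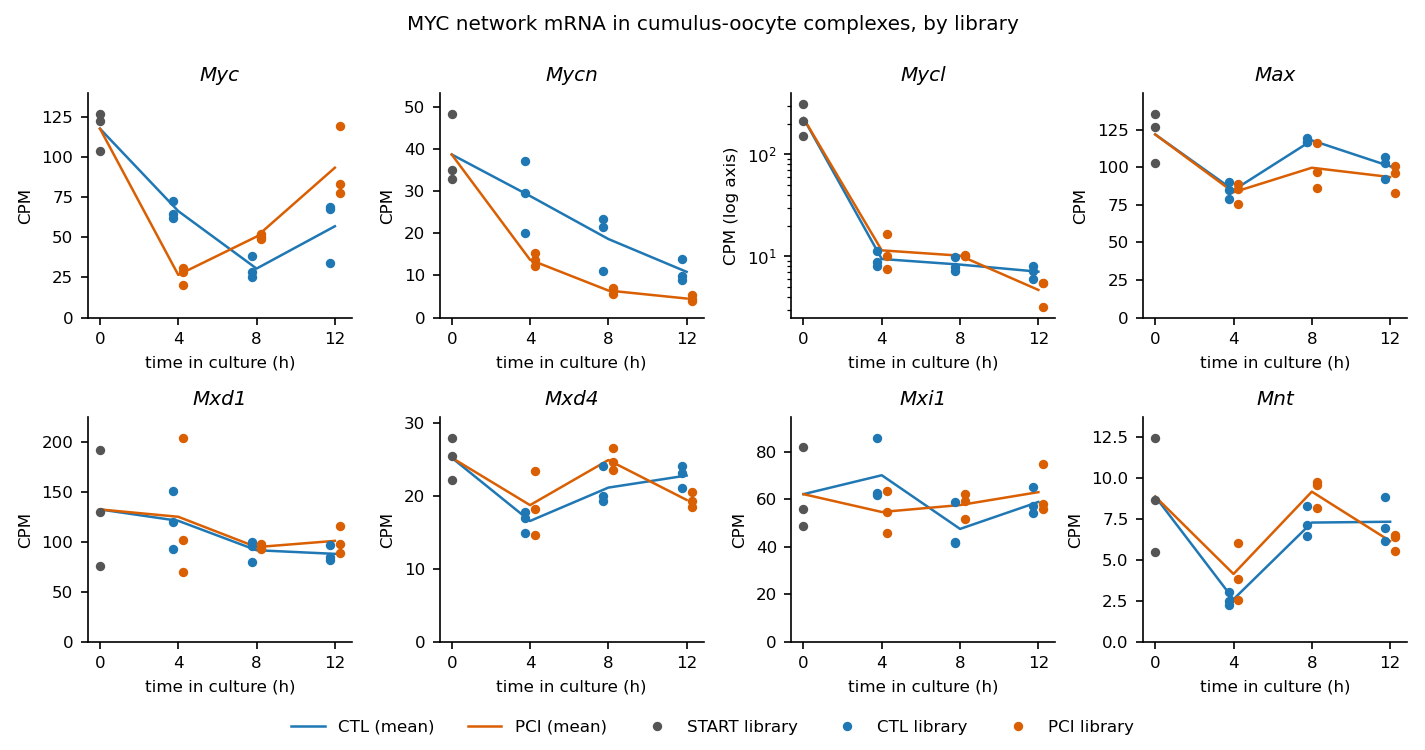
CPM of each of the 8 genes (vertical axis, log scale for Mycl, linear from 0 for the others) against hours in culture, with 1 point per library and lines through the group means. START libraries are grey, CTL blue and PCI orange. CTL and PCI means of Myc cross between 4 and 8 h, PCI means of Mycn lie below CTL at every time, and Mycl drops from 226 CPM at START to about 10 CPM or less in CTL.

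Mycl encodes L-MYC, the paralog with the weakest transforming activity of the MYC proteins. Its START libraries held 153, 212 and 314 CPM. In CTL they held 8.84, 8.06 and 11.3 CPM at 4 h, 7.85, 9.82 and 7.22 CPM at 8 h, and 7.26, 5.97 and 7.97 CPM at 12 h. Every cultured control library was far below every START library. The fall was 24.0-fold by 4 h (log2 fold change -4.59 ± 0.32 (SE), edgeR adjusted p = 2.52e-09), 27.3-fold by 8 h (-4.77 ± 0.32, adjusted p = 1.51e-09) and 32.1-fold by 12 h (-5.0 ± 0.33, adjusted p = 6.64e-10). These 3 comparisons share the START libraries. The steps from 4 to 8 h (-0.18 ± 0.28) and from 8 to 12 h (-0.23 ± 0.29) were not called, so nearly all of the fall lay in the first 4 h. Among the 3 MYC genes per kb, the share of Mycl went from 49.5% ± 6.14 at START to 6.55% ± 0.71 in CTL at 4 h.

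Beside these values stand those of other cell types. The summed level of 18 oocyte markers (all detected; among them Gdf9, Zp3 and Bmp15) was 16825, 10842 and 4144 CPM in START replicates 1, 2 and 3, in the reverse order of Mycl. Across CTL the marker sum was 9403 ± 2450 CPM at 4 h, 6727 ± 1862 CPM at 8 h and 3096 ± 627 CPM at 12 h, against 10604 ± 6344 CPM at START. Red blood cell markers (5 genes, of which 2 were at 0 at START) summed to 17.1, 45.5 and 68.7 CPM in START replicates 1, 2 and 3, in the order of Mycl and of Mnt (5.48, 8.66 and 12.5 CPM). Only 1 of the 5, Alas2, passed the filter on low counts. The globin genes did not, so this sum is no sure measure of red blood cells. In CTL the red blood cell marker sum was 9.87 ± 3.71 CPM at 4 h, 2.39 ± 1.47 CPM at 8 h and 0.864 ± 0.11 CPM at 12 h. Cumulus markers (12 genes) summed to 5628, 8640 and 12980 CPM in START replicates 1, 2 and 3, also in the order of Mycl and Mnt. In CTL the cumulus sum was 22733 ± 5794 CPM at 4 h, 8411 ± 1302 CPM at 8 h and 4553 ± 390 CPM at 12 h. At 4 h against START, 5 of the 12 were called higher and 5 lower, where 31.5% of all tested genes were called. Their median log2 fold change was -0.55, so the cumulus sum does not stand for the whole list and is no sure measure of cumulus cells. The part of oocytes, cumulus cells and red blood cells in the values of Mycl and the other members over time was not tested.

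Myc encodes c-MYC, the most widely expressed of the MYC proteins. START libraries held 104, 122 and 127 CPM. CTL libraries held 64.2, 62.3 and 72.4 CPM at 4 h, 38.3, 25 and 28.2 CPM at 8 h, and 34.2, 67.6 and 68.9 CPM at 12 h. Every control library lay below every START library, with the lowest group at 8 h, and at 12 h replicate 1 stayed within the 8 h range while the other two were back at the 4 h level. Against START, Myc was 1.77-fold lower at 4 h (log2 -0.83 ± 0.23), 3.86-fold lower at 8 h (-1.95 ± 0.24) and 2.07-fold lower at 12 h (-1.05 ± 0.23). It was 2.17-fold lower at 8 than at 4 h (-1.12 ± 0.24), and 1.86-fold higher at 12 than at 8 h (0.90 ± 0.23), with overlapping libraries. Without any one library these log2 values stayed between -0.90 and -0.67, -2.15 and -1.81, -1.20 and -0.78, -1.30 and -0.97, and 0.74 and 1.17.

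Mycn encodes N-MYC, best known from embryonic and neural progenitors. It held 34.9, 32.9 and 48.4 CPM at START. CTL libraries held 37.2, 20.0 and 29.5 CPM at 4 h, 11.1, 23.5 and 21.4 CPM at 8 h, and 13.8, 8.96 and 9.81 CPM at 12 h. START and 4 h overlapped, and the 8 and 12 h libraries all lay below START. The fall was 2.07-fold by 8 h (log2 -1.05 ± 0.27, adjusted p = 0.00452) and 3.56-fold by 12 h (-1.83 ± 0.28, adjusted p = 2.5e-05). At 4 h the difference was -0.42 ± 0.27 (adjusted p = 0.276), and neither the step to 8 h (-0.63 ± 0.27, adjusted p = 0.1) nor that to 12 h (-0.78 ± 0.27, adjusted p = 0.0827) was called on its own. Unlike Myc, Mycn had its lowest CTL mean at 12 h, when Myc was back above its own 8 h mean.

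Max encodes the obligate partner, which is usually stable in level. START libraries held 103, 127 and 135 CPM, and CTL libraries 79.0, 85.0 and 90.2 CPM at 4 h, 117, 117 and 120 CPM at 8 h, and 103, 107 and 92.3 CPM at 12 h. The 4 h libraries lay below all the others of START and CTL. Max was 1.44-fold lower at 4 h than at START (log2 -0.52 ± 0.13, adjusted p = 0.00479) and rose 1.39-fold from 4 to 8 h (0.48 ± 0.13, adjusted p = 0.0159). Without CTL 4 h replicate 1 neither was called (adjusted p = 0.120 and 0.0911). The whole range of its 7 group means was 1.46-fold, against 48.3-fold for Mycl, 8.56-fold for Mycn and 4.43-fold for Myc.

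Of the repressor genes, Mnt moved most. MNT is the most broadly expressed of the MAX-binding repressors and is generally present in dividing and resting cells alike. START libraries held 5.48, 8.66 and 12.5 CPM and CTL libraries 2.49, 2.26 and 3.02 CPM at 4 h, 6.42, 8.29 and 7.11 CPM at 8 h, and 6.97, 8.82 and 6.18 CPM at 12 h. The 4 h libraries were below all the others, and the rest overlapped. The fall by 4 h was 3.42-fold (log2 -1.78 ± 0.31, adjusted p = 0.000188) and the rise from 4 to 8 h 2.81-fold (1.49 ± 0.31, adjusted p = 0.00261). Mnt had the lowest counts of the 8 genes, 70 to 86 reads per library in CTL at 4 h.

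Mxd4, whose product is linked to cells leaving the cycle, held 28.0, 22.2 and 25.5 CPM at START and 15.0, 17.8 and 16.9 CPM in CTL at 4 h. Its 8 h libraries held 19.3, 24.1 and 20.1 CPM and its 12 h libraries 24.1, 23.2 and 21.1 CPM. The 4 h libraries lay below all the others, and Mxd4 was 1.52-fold lower than at START (log2 -0.61 ± 0.17, adjusted p = 0.00888), a call lost without CTL 4 h replicate 1 (-0.41, adjusted p = 0.113). Its difference from 4 to 8 h was 0.35 ± 0.17 (adjusted p = 0.143). Max, Mnt and Mxd4 had their lowest CTL mean at 4 h, Myc at 8 h and Mycn at 12 h.

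Mxi1 and Mxd1 passed no test in the control time course by edgeR with all libraries, though some alternatives gave a call. Mxi1, the gene of a repressor also named MXD2, held 55.9, 48.8 and 82.0 CPM at START, 85.9, 62.0 and 62.5 CPM at 4 h, 41.4, 59.0 and 42.2 CPM at 8 h and 54.1, 65.3 and 57.3 CPM at 12 h in CTL. Its 8 h libraries were all below its 4 h libraries (log2 -0.56 ± 0.20, adjusted p = 0.0518), and this difference did pass by DESeq2 (adjusted p = 0.0266). By edgeR it also passed in 5 of the 21 fits that left out 1 library, with adjusted p-values from 0.0270 without START replicate 3 to 0.0484 without PCI 12 h replicate 3. Mxd1, the founding repressor of the family, held 192, 130 and 75.8 CPM at START. In CTL it held 92.6, 151 and 120 CPM at 4 h, 95.4, 79.6 and 100 CPM at 8 h, and 97.1, 81.9 and 85.1 CPM at 12 h. Its log2 differences from START were -0.13 ± 0.31, -0.53 ± 0.31 and -0.59 ± 0.31. Without START replicate 3, the lowest of its group, the last of these was -0.80 (adjusted p = 0.0358).

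Mxd1 was high in libraries with high oocyte markers. Over the 21 libraries, log2 CPM of Mxd1 and the log2 sum of the 18 oocyte markers had a Pearson r of 0.84, given as a description because the libraries share groups and time. The order of the 3 libraries was the same for both in every group except PCI at 8 h. PCI at 4 h held 102, 204 and 69.6 CPM of Mxd1 beside marker sums of 7578, 17685 and 4844 CPM. The same r was 0.46 for Mycn and 0.31 for Mycl, near 0 for Myc (-0.07) and Mxd4 (0.03), and negative for Max (-0.19), Mxi1 (-0.39) and Mnt (-0.52).

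**Figure D2:**
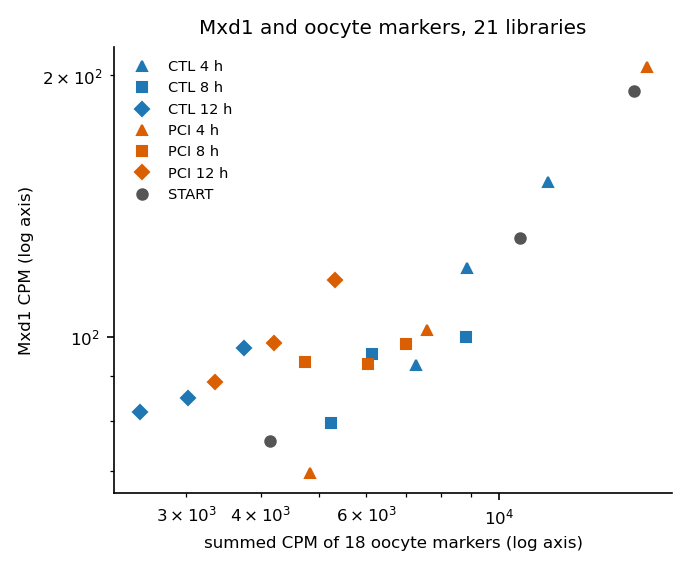
CPM of Mxd1 (vertical axis, log scale) against the summed CPM of 18 oocyte markers (horizontal axis, log scale), 1 point per library, coloured by arm and shaped by time. Libraries with a high oocyte sum, up to 17685 CPM, hold the most Mxd1, up to 204 CPM.

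Of the 7 genes other than Myc, 4 were lower at 4 h than at START and 0 higher, where 15.3% of all tested genes were lower and 31.5% were called in either direction. At 8 h 2 were lower (Mycn and Mycl), against 20.6% of all genes (41.3% called), and at 12 h Mycn and Mycl again, against 26% (51% called). The median log2 fold changes of the 7 were -0.52, -0.39 and -0.28, beside -0.05, -0.08 and -0.06 over all tested genes. From 4 to 8 h 2 were called, Max and Mnt, both higher, where 23.2% of genes were called. From 8 to 12 h edgeR called 0 of the 7, where 8.8% of genes were called; 1 had an unadjusted p under 0.05, and DESeq2 called 1, Mycn. Without CTL 4 h replicate 1 only Mycl and Mnt were called at 4 h. With scaling by library size alone the log2 fold changes of all genes move by -0.12 at 4 h and -0.11 at 12 h against START.

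**Figure D3:**
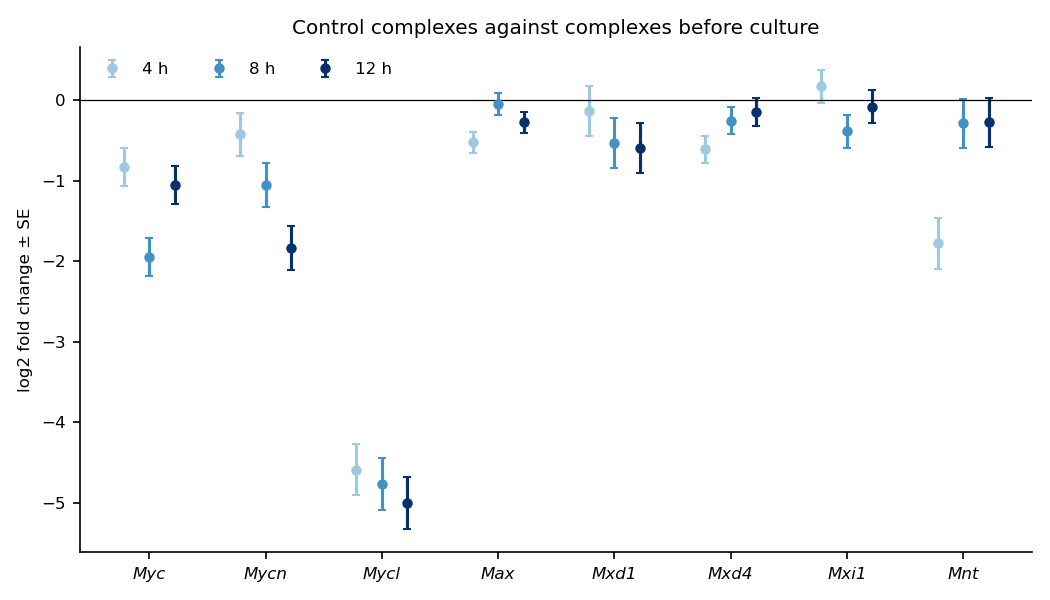
Log2 fold change ± SE (vertical axis) of each gene in CTL at 4, 8 and 12 h against START, from the edgeR fit to 21 libraries. The 3 comparisons share the START libraries. Mycl sits at -4.59 or below at all times, and Myc is lowest at 8 h.

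With the inhibitor the low point of Myc came earlier. PCI libraries held 28.5, 30.8 and 20.5 CPM of Myc at 4 h, 50.2, 52.2 and 49.0 CPM at 8 h, and 83.1, 77.5 and 120 CPM at 12 h. At 4 h every PCI library lay below every CTL library, and at 8 and 12 h every PCI library lay above every CTL library. The PCI minus CTL differences, which led to the choice of the genes, were -1.32 ± 0.24, 0.73 ± 0.23 and 0.71 ± 0.23 on the log2 scale, or 2.49-fold lower, 1.65-fold higher and 1.64-fold higher. The difference at 8 h exceeded that at 4 h by 2.04 ± 0.33 and that at 12 h exceeded it by 2.03 ± 0.33, while 8 and 12 h differed by -0.01 ± 0.33. Without any one library the difference stayed between -1.43 and -1.14 at 4 h, 0.59 and 0.92 at 8 h, and 0.42 and 0.86 at 12 h. The smallest 12 h value was without CTL replicate 1, the control library with the least Myc.

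In order of the means, Myc was highest at START (118 CPM), then PCI at 12 h (93.4 CPM), CTL at 4 h (66.3 CPM), CTL at 12 h (56.9 CPM), PCI at 8 h (50.4 CPM), CTL at 8 h (30.5 CPM) and PCI at 4 h (26.6 CPM). Only PCI at 12 h against CTL at 4 h and PCI at 8 h against CTL at 8 h were neighbours whose libraries did not overlap. PCI libraries at 4 h overlapped in Myc with CTL libraries at 8 h. Within the PCI arm, Myc was higher by 0.92 ± 0.24 (log2) at 8 than at 4 h and by 0.89 ± 0.23 at 12 than at 8 h, whereas in CTL it was lower at 8 than at 4 h.

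Mycn did not change sign. PCI libraries held 15.4, 13.6 and 12.2 CPM at 4 h, 6.95, 6.61 and 5.72 CPM at 8 h, and 4.43, 3.84 and 5.30 CPM at 12 h. At each time all 3 lay below all 3 CTL libraries. The PCI minus CTL differences were -1.07 ± 0.27, -1.54 ± 0.28 and -1.27 ± 0.28, or 2.10-, 2.90- and 2.41-fold lower. Ordered by mean, Mycn ran from START (38.7 CPM) through CTL at 4 h (28.9 CPM), CTL at 8 h (18.7 CPM), PCI at 4 h (13.7 CPM), CTL at 12 h (10.9 CPM) and PCI at 8 h (6.42 CPM) to PCI at 12 h (4.52 CPM). The last 3 did not overlap with each other, and the earlier neighbours did.

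The other members differed less between the arms. PCI libraries of Mycl held 10.1, 7.44 and 16.7 CPM at 4 h, 10.0, 10.2 and 10.2 CPM at 8 h, and 5.43, 3.16 and 5.47 CPM at 12 h. They overlapped with CTL at 4 h, lay all above it at 8 h (log2 0.29 ± 0.28) and all below it at 12 h (-0.59 ± 0.29). For Max, Mxd1, Mxd4, Mxi1 and Mnt the differences ran from -0.36 (Mxi1) to 0.68 (Mnt) at 4 h, -0.24 (Max) to 0.33 (Mnt) at 8 h and -0.25 (Mnt) to 0.20 (Mxd1) at 12 h. Mnt held 3.83, 2.51 and 6.05 CPM in PCI at 4 h, a wider spread than in CTL. Mxd4 at 12 h held 19.3, 20.5 and 18.5 CPM in PCI, all below CTL (-0.23 ± 0.17), and Max at 8 h held 96.7, 86.1 and 116 CPM, also all below CTL (-0.24 ± 0.13). By the call rule used for all genes, 1 of the 8 was called at 4 h (Myc), 1 at 8 h and 1 at 12 h (both Mycn). Of all tested genes 0.132%, 3.67% and 1.98% were called. Since Myc in this contrast chose the members, nothing is read from these counts.

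**Figure D4:**
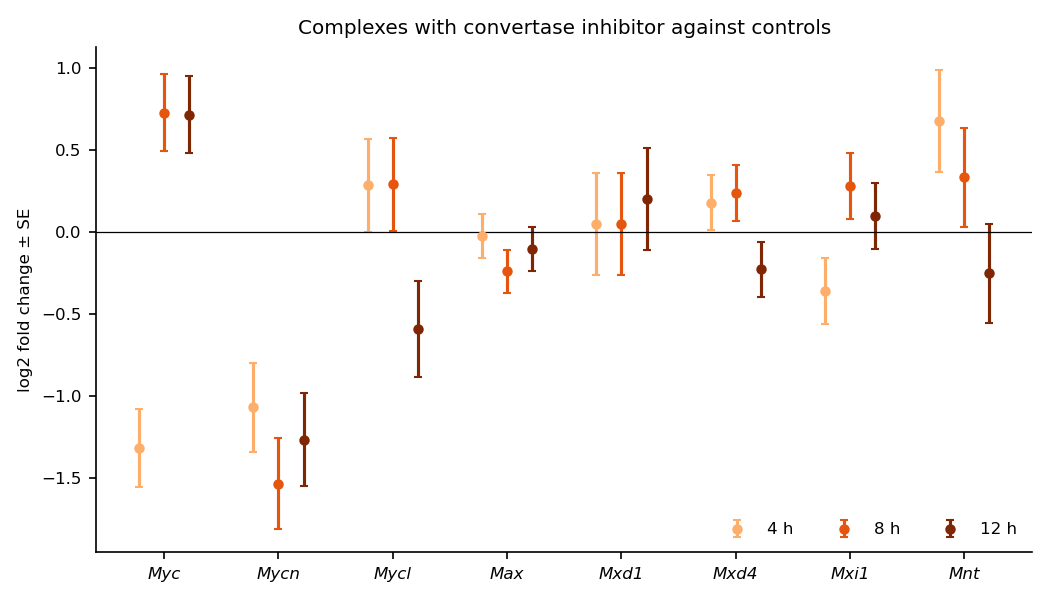
Log2 fold change ± SE (vertical axis) of PCI against CTL at 4, 8 and 12 h for each gene, from the edgeR fit, as a description. Myc sits at -1.32 at 4 h and above 0.7 later, Mycn below -1 at all 3 times, and the other genes between -0.59 and 0.68.

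The shares of the MYC genes were set side by side, as a description. Of the summed level per kb of the 3 MYC genes, Myc made up 93.1% ± 1.00 in PCI at 12 h and 79.0% ± 9.78 in CTL, and 80.6% ± 0.46 in PCI against 59.1% ± 12.2 in CTL at 8 h. Mycn made up 3.76% ± 0.31 and 13.9% ± 7.50 at 12 h, and 8.46% ± 0.68 and 30.0% ± 11.1 at 8 h. At 4 h the Myc share was 57.9% ± 8.34 in PCI and 69.0% ± 5.14 in CTL, the Mycn share 24.8% ± 1.41 and 24.4% ± 5.49. The Mycl share at 4 h was 17.3% ± 8.57 in PCI and 6.55% ± 0.709 in CTL, without overlap of the libraries.

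Markers of other cell types were also summed. Theca markers (3 genes) summed to under 2 CPM and leukocyte markers (6 genes) to 3.26 to 36.6 CPM in every library. Endothelial markers (5 genes) ranged from 20.5 to 73.0 CPM. The 7 stroma markers summed to 74.1 to 91.0 CPM in CTL at 12 h and 24.0 to 38.4 CPM in PCI at 12 h. At 8 h they summed to 33.7 to 43.2 and 21.9 to 29.4 CPM, also without overlap, while at 4 h the arms overlapped (48.1 to 67.6 and 31.6 to 94.1 CPM). Of the 6 stroma markers that passed the filter, 3 were lower and 3 higher in PCI than in CTL at 12 h. Of these, 2 were called, both lower, where 1.98% of all tested genes were called. At 8 h 4 were lower and 2 higher, with 1 called, lower, where 3.67% of all tested genes were called. The sums thus do not stand for the whole list. The part of these cell types in the 8 and 12 h differences of Myc and Mycn was not tested. The 12 cumulus markers summed to 17044 to 28626 CPM in CTL at 4 h and 10634 to 17985 CPM in PCI; they include matrix genes such as Has2 that change in culture.

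The wider network comprises MLX, a MAX relative, its glucose-sensing partners MLXIP and MLXIPL, the repressor MXD3 and the MAX partner MGA. Of these 5 genes, 3, 4 and 5 were called in CTL at 4, 8 and 12 h, where 31.5%, 41.3% and 51% of all genes were. Mlx rose from 30.5 ± 1.2 CPM at START to 55.4 ± 4.45, 62.7 ± 5.54 and 56.9 ± 2.13 CPM in CTL (log2 0.86 ± 0.14, adjusted p = 5.2e-05 at 4 h). Mlxip fell from 125 ± 25.1 to 67.1 ± 3.04 CPM by 4 h (-0.89 ± 0.14, adjusted p = 3.97e-05), and Mlxipl fell by 12 h (-2.03 ± 0.39, adjusted p = 0.00029). Mxd3 fell by 4 h (-2.62 ± 0.47, adjusted p = 0.000199) and Mga rose by 12 h (0.62 ± 0.15, adjusted p = 0.00235). Arrdc4 and Txnip, known targets of MLX dimers, moved in opposite directions: Arrdc4 rose by 12 h (2.69 ± 0.22, adjusted p = 1.54e-08), and Txnip fell (-1.35 ± 0.30, adjusted p = 0.000937). With the inhibitor 0 of these 7 genes was called at any time by edgeR, where 0.132%, 3.67% and 1.98% of all genes were, beside 1, 0 and 2 at an unadjusted p under 0.05 at 4, 8 and 12 h; DESeq2 called 1 of the MLX targets at 12 h.

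Pvt1, the long non-coding RNA gene next to Myc, had another course of its means. It held 3.18 ± 0.154 CPM at START and 2.88 ± 0.554, 0.84 ± 0.415 and 0.636 ± 0.122 CPM in CTL. It was not called at 4 h (log2 -0.14 ± 0.40), was lower at 8 h (-1.91 ± 0.42, adjusted p = 0.00138) and 12 h (-2.31 ± 0.43, adjusted p = 0.000207), and was not called between PCI and CTL at any time.

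Genes whose products work with these factors were counted in CTL at 4, 8 and 12 h, when 31.5%, 41.3% and 51% of all genes were called. Among 12 cofactor genes, 5, 6 and 7 were called (41.7%, 50% and 58.3%), with 1, 2 and 3 of them higher. The count at 4 h fell to 3 without START replicate 3 or CTL 4 h replicate 1. The acetyltransferase gene Kat2a was lower at 4 h (log2 -0.95 ± 0.14, adjusted p = 3.45e-05) and Hcfc1 higher at 8 h (0.68 ± 0.14, adjusted p = 0.000874). Of 9 corepressor genes 1, 1 and 4 were called (11.1%, 11.1% and 44.4%). The count at 4 h was 0 without START replicate 1 or CTL 4 h replicate 1, that at 8 h was 2 or 3 in 10 of the 21 fits that left out 1 library, and that at 12 h was 2 without START replicate 1. Sap18, of the SIN3 complex, was lower at 12 h (-1.31 ± 0.22, adjusted p = 5.95e-05) and Ncor1 higher (0.67 ± 0.14, adjusted p = 0.000772). Of 13 genes that act on MYC protein stability, 2, 4 and 6 were called (15.4%, 30.8% and 46.2%), and at 4 h 1 was without START replicate 2 or CTL 4 h replicate 2. Cip2a, which shields MYC from dephosphorylation, was lower at 12 h (-1.03 ± 0.17, adjusted p = 6.84e-05), and Fbxw7, the ubiquitin ligase subunit that marks MYC for breakdown, was higher at 8 h (0.49 ± 0.13, adjusted p = 0.00589). With the inhibitor, Pim3, a kinase gene of this list, was lower at 8 h (107 ± 14.0 against 190 ± 31.1 CPM, log2 -0.83 ± 0.18, adjusted p = 0.0139). Pim3 was no longer called without CTL 8 h replicate 1, PCI 8 h replicate 1 or PCI 8 h replicate 2. No other gene of the 3 lists was called between the arms by edgeR or DESeq2; at an unadjusted p under 0.05 there were 3, 4 and 2 of all their genes, Pim3 included.

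Genes commonly induced by MYC were, by 12 h in CTL, more often lower than higher. Of 67, 8 were higher and 16 lower at 4 h, 9 and 20 at 8 h, and 8 and 31 at 12 h. The shares called, 35.8%, 43.3% and 58.2%, lay near the 31.5%, 41.3% and 51% over all genes. Their median log2 fold changes were -0.04, -0.15 and -0.39, beside -0.05, -0.08 and -0.06 for all tested genes. Oocyte markers were lower in the same comparison: 14 of 18 were called lower at 12 h, with a median of -3.48. From 8 to 12 h all 18 were negative (median -1.995), and their part in the values of the induced genes was not tested. Ccnd2, cyclin D2 of granulosa cell proliferation, fell from 300 ± 102 CPM at START to 61.8 ± 1.73 CPM at 12 h (-2.28 ± 0.24, adjusted p = 3.2e-07), and the ribosome assembly genes Ppan (-1.33 ± 0.16, adjusted p = 2.14e-06) and Nop58 (-1.19 ± 0.15, adjusted p = 3.82e-06) fell with it. Odc1, the first enzyme of polyamine synthesis, went the other way, from 300 ± 49.7 to 1715 ± 349 CPM by 4 h (2.51 ± 0.28, adjusted p = 9.26e-07). Cad, an enzyme of pyrimidine synthesis, was lower at 4 h (-1.60 ± 0.23, adjusted p = 2.2e-05) and back at 126 ± 21.6 CPM at 8 h, beside 134 ± 51.9 CPM at START. From 8 to 12 h, when the mean of Myc was higher, 9 of the 67 (13.4%) were called, beside 8.8% of all genes, and all 9 were lower, among them Srm (-0.82 ± 0.17, adjusted p = 0.00594), Npm1 (-0.66 ± 0.15, adjusted p = 0.00908) and Ncl (-0.74 ± 0.18, adjusted p = 0.0174). The Ncl call was lost in 4 of 21 fits that left out 1 library. The count of 9 fell to 2 without CTL 8 h replicate 1, CTL 8 h replicate 3 or CTL 12 h replicate 1, to 4 without CTL 12 h replicate 2 and to 5 without CTL 12 h replicate 3.

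Of genes commonly repressed by MYC, more were called higher than lower against START. Of 15, 7 were higher and 2 lower at 4 h, 8 and 1 at 8 h, and 8 and 2 at 12 h, with medians of 0.58, 0.71 and 0.75. In all 60%, 60% and 66.7% were called, beside 31.5%, 41.3% and 51% over all genes. From 4 to 8 h 2 were higher and 2 lower (26.7% called, beside 23.2% of all genes), and 11 of the 15 values were negative. The cell cycle inhibitor genes Cdkn1a (2.57 ± 0.29 at 4 h, adjusted p = 1.25e-06) and Cdkn2b (4.55 ± 0.47 at 12 h, adjusted p = 2.76e-07) rose, as did Ndrg1 (2.68 ± 0.25 at 12 h, adjusted p = 7.41e-08). Cdkn2b stood at 0.488 ± 0.186 CPM at START and 11.5 ± 0.682 CPM at 12 h. The count at 8 h fell from 9 to 5 without CTL 8 h replicate 2.

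Between PCI and CTL, 0.132%, 3.67% and 1.98% of all tested genes were called at 4, 8 and 12 h. Of the 67 induced genes 0, 3 (4.48%) and 0 were called by edgeR, shares near those over all genes, beside 1, 24 and 12 at an unadjusted p under 0.05; DESeq2 called 0, 7 and 2. Srm, the spermidine synthase gene, held 62.5 ± 11.3 CPM in PCI and 131 ± 23.3 CPM in CTL at 8 h (-1.07 ± 0.17, adjusted p = 0.0015), and Las1l, of pre-rRNA processing, was also lower (-0.58 ± 0.12, adjusted p = 0.01), while Rcl1 was higher (0.59 ± 0.15, adjusted p = 0.0342). The call of Srm held in all 21 fits that left out 1 library, that of Las1l was lost without CTL 8 h replicate 1, and that of Rcl1 was lost in 9 of the 21. The medians over the 67 were -0.02, -0.19 and 0.18 at 4, 8 and 12 h, beside 0.04, -0.02 and 0.03 for all tested genes. At 8 h 57 of the 67 values were negative and at 12 h 54 were positive, while Myc was higher and Mycn lower with the inhibitor at both times. Of the 18 oocyte markers 13 were negative at 8 h (median -0.36) and 18 positive at 12 h (0.51); their part in the values of the list was not tested. Of the 15 repressed genes edgeR called 1, 1 and 0 (6.67%, 6.67% and 0%), beside 4, 7 and 3 at an unadjusted p under 0.05. DESeq2 called 2, 3 and 0, and its 3 at 8 h were 2 higher and 1 lower. The medians over the 15 were -0.06, 0.38 and -0.12, with 6, 8 and 3 values positive and 9, 7 and 12 negative. By edgeR, Pdgfrb was lower at 4 h (-1.95 ± 0.37, adjusted p = 0.0419) and Gadd45b at 8 h (-1.45 ± 0.30, adjusted p = 0.00818). The Pdgfrb call was lost in 16 of those 21 fits, and that of Gadd45b without PCI 8 h replicate 1 or 2.

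**Figure D5:**
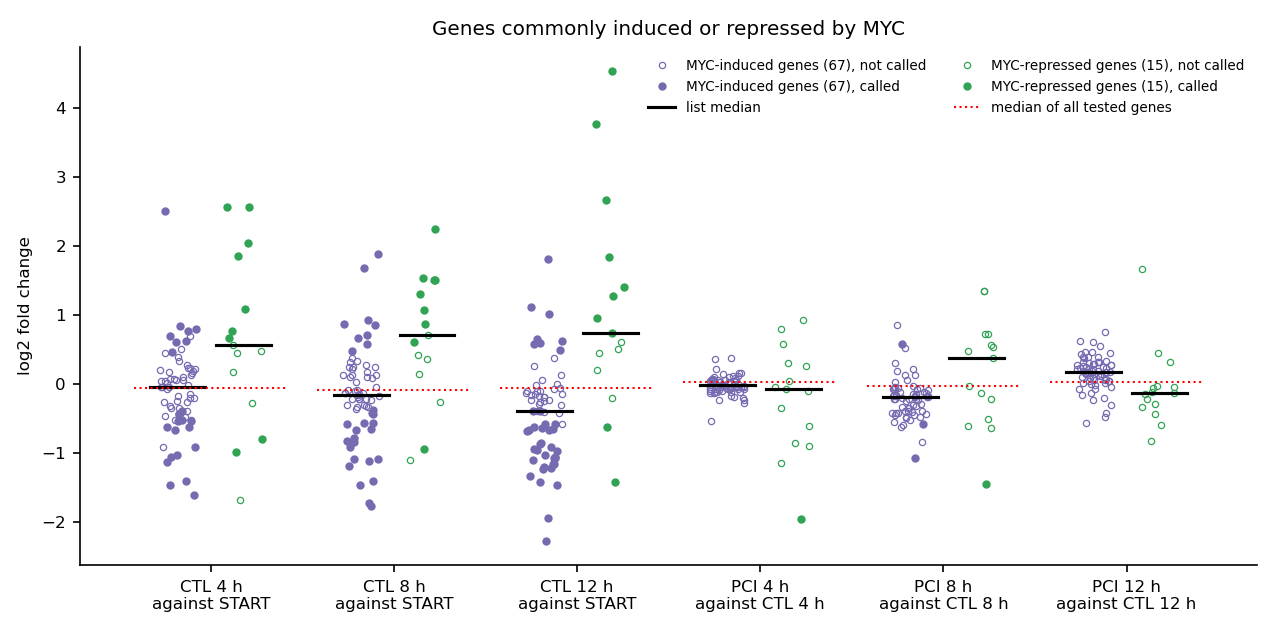
Log2 fold changes (vertical axis) of 67 genes commonly induced and 15 commonly repressed by MYC, 1 point per gene, in 3 comparisons of CTL with START and 3 of PCI with CTL. Filled points were called at an edgeR adjusted p under 0.05, black bars are list medians and red dotted lines medians of all tested genes. The induced list has its lowest median at 12 h in CTL, -0.39, and few points are filled in the PCI comparisons.

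Of 11 genes that report on signals acting on Myc, 8 (72.7%) were called in CTL at each time, beside 31.5%, 41.3% and 51% of all genes. The list was chosen with earlier results of these data known. Nothing is therefore read from this share, and the calls below are no independent support. Fos fell (log2 -4.73 ± 0.50 at 4 h, adjusted p = 5.06e-07). With the inhibitor, Smad7, a feedback gene of TGF-beta and BMP signalling, was lower at 4 h (-1.46 ± 0.18, adjusted p = 0.00261), 8 h (-1.42 ± 0.18, adjusted p = 0.000438) and 12 h (-0.74 ± 0.18, adjusted p = 0.035). The 12 h call was lost in 5 of 21 fits that left out 1 library. Id1, a target of BMP signalling, was lower at 4 h (-1.19 ± 0.21, adjusted p = 0.0258) and 8 h (-0.93 ± 0.21, adjusted p = 0.0139), calls lost in 4 and 3 of those fits. Jun was lower at 4 h (-1.08 ± 0.18, adjusted p = 0.0236) and 12 h (-0.92 ± 0.18, adjusted p = 0.0113). Egr1, an immediate-early gene of ERK signalling, was higher at 8 h (1.86 ± 0.44, adjusted p = 0.0208), at the time when Myc was higher too, and it was not called at 4 h (0.43 ± 0.43) or 12 h (0.24 ± 0.43). The 8 h call of Egr1 was lost without CTL 8 h replicate 1 or 3 or PCI 8 h replicate 1, and that of Jun at 4 h without PCI 4 h replicate 1 or 3, CTL 4 h replicate 3 or CTL 12 h replicate 3. Jun at 12 h was lost without PCI 12 h replicate 3.

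The patterns most like that of each gene were found among 10551 genes whose mean CPM reached 5. Pearson r was taken of log2 CPM over the 21 libraries, which share groups and time and differ in oocyte marker sums (2509 to 17685 CPM). The part of oocyte RNA in these r values was not tested. For Myc the closest genes were Jmjd1c (r = 0.82), Ccn2 (0.81), Phactr2 (0.81), Greb1 (0.81) and Rgs12 (0.81). Mycn was most like Chst8 (0.94) and Chp2 (0.92), Mycl most like Mmd2 and Epas1 (both 0.96), and Max most like Ralb (0.87) and Dnajb9 (0.86). For the repressors they were Ccdc69 (0.96) and Camkmt (0.95) for Mxd1, Srf and Rnf187 (both 0.84) for Mxd4, Kmt2a (0.77) and Ext1 (0.76) for Mxi1, and Cep97 and Plekha7 (both 0.93) for Mnt. The r of the closest gene was thus lowest for Mxi1 and Myc, with Mxd4 and Max next, and highest for Mxd1 and Mycl. Among the 8 genes themselves, the highest r was 0.72 (Max and Mnt), then 0.67 (Mycn and Mycl) and 0.59 (Mxd4 and Mnt), and the lowest was -0.54 (Mxd1 and Mnt). Myc and Mycn had an r of 0.07.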

How the data were processed

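RNA was sequenced from 21 libraries of mouse cumulus-oocyte complexes made with a stranded mRNA kit, per the labels' protocols. The deposited table holds unnormalised read counts by gene, which the authors made with cutadapt, STAR (mm39) and HTSeq, per the submitters' processing notes (versions and HTSeq's strand setting not given in the sources used here). Column names gave each library's sample. Library totals were 19458618 to 37491828 counts, and no replicates agreed within sampling noise.

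In R 4.3.3, edgeR 4.0.16 (filterByExpr, TMM scaling) kept 18192 genes. A single quasi-likelihood model (robust), with 1 coefficient for each group, used all 21 libraries and left 14 residual degrees of freedom; the biological coefficient of variation was 29.5%. Two-sided p-values were adjusted by Benjamini-Hochberg over the 18192 genes, and called means an adjusted p under 0.05. SEs were derived from the fold change and its F statistic. CPM use TMM-scaled library sizes, log2 CPM a prior count of 2. The fit was tried on counts simulated from its own model, for PCI against CTL at 8 h only. This tests neither the other comparisons nor the model's assumptions. Promoter windows were searched with Python 3.11.15.

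The members and lists were chosen with earlier results of these data known; the lists of MYC-induced, MYC-repressed and partner genes come from general knowledge. Beside the 8 members, the text names up to 4 genes of a list with the smallest p in a comparison, the 5 genes most like Myc and the 2 most like each other member; list genes shown at another time than the one that named them are given for the course. Alternatives were RLE or library-size scaling, no filter, DESeq2 1.42.0, only the groups compared, a replicate block and each library left out. Replicate numbers recur in every group: correlations of deviations between libraries with 1 number were 0.14 to 0.52 for PCI with CTL at 4 h, 0.11 to 0.27 at 8 h and 0.04 to 0.23 at 12 h, and -0.25 to 0.19 for START with CTL at 4 h. By a limit of 0.1 for every pair, the numbers pair PCI with CTL at 4 and 8 h and CTL at 8 h with CTL at 12 h (0.17 to 0.23), from the data and not from the labels. This outcome depends on the limit. CTL 8 h replicate 2 was more like another PCI 8 h replicate than like its own number. At 12 h each CTL library was most like its own number in PCI.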

Additional observations from a re-analysis of the deposited data

Results flagged for a closer look

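The difference of Myc between PCI and CTL changed direction with time: every PCI library was below every CTL library at 4 h and above at 8 and 12 h. The change was 2.04 on the log2 scale from 4 to 8 h and 2.03 from 4 to 12 h. It was not tested, because this pattern chose the genes.

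For Mycl every PCI library was above every CTL library at 8 h (log2 0.29 ± 0.28) and below at 12 h (-0.59 ± 0.29). The change was -0.88 ± 0.41 (log2 ± SE). It was found by a search of all 8 genes and was not tested either. No group was large enough to look for single outlying libraries.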

How the results depend on the processing

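Counts of members below include Myc, whose values are a description. With the replicate block no call of a member changed: 5, 3, 3, 3 and 1 members were called in the 5 control comparisons, and genes called were 5867, 7554, 9416, 4297 and 1626, with 29, 701 and 392 between PCI and CTL at 4, 8 and 12 h. It moved no result of the MYC-induced and MYC-repressed lists by over 1.5 times.

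From 8 to 12 h in CTL, 2 members were called with library-size scaling and by DESeq2, the added one being Mycn (adjusted p = 0.0463 and 0.0352), and 0 with only the groups compared. Max at 12 h against START passed with library-size scaling (0.0224), by DESeq2 (0.0378) and without START replicate 1 (0.0466). Only the groups compared gave 3 members at 4 h against START, where Max (adjusted p = 0.0832) and Mxd4 (0.0842) were not called; Mxd4 also missed without the filter (0.0724), as did Max from 4 to 8 h (0.0654). Mxi1 passed from 4 to 8 h under RLE (0.0396), DESeq2 (0.0266) and only the groups compared (0.0397). Mnt from 8 to 12 h, at 0.01, was -0.00475 under RLE, -0.0487 with library size, -0.0184 without the filter, -0.00356 by DESeq2 and -0.000168 with only the groups compared.

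Genes called moved with DESeq2 to 2404 from 8 to 12 h in CTL, and to 114, 1084 and 683 for PCI at 4, 8 and 12 h; without the filter to 46 for PCI at 4 h; with only the groups compared to 3780 (CTL 4 h against START), 3005 (8 to 12 h), 0 (PCI 4 h) and 799 (PCI 12 h). MYC-induced genes called were 5 (library size), 1 (no filter) and 7 (DESeq2) for PCI at 8 h, 2 for PCI at 12 h by DESeq2 and with only the groups compared, 7 (no filter) and 17 (only the groups compared) from 4 to 8 h, 5 and 16 from 8 to 12 h, and 10 at 4 h against START with only the groups compared. MYC-repressed genes called were 2 for PCI at 4 h without the filter and by DESeq2 and 0 with only the groups compared, 3 for PCI at 8 h by DESeq2 and with only the groups compared, and 5 from 8 to 12 h with only the groups compared.

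Leaving out 1 library at a time, members called ranged from 2 to 5 at 4 h, 3 to 3 at 8 h and 3 to 4 at 12 h against START, 2 to 4 from 4 to 8 h and 0 to 2 from 8 to 12 h. Genes called ranged from 4895 to 6098, 5919 to 8164 and 7961 to 10045 against START, 2295 to 4953 and 606 to 2082 for the steps, and 3 to 54, 272 to 822 and 128 to 475 for PCI at 4, 8 and 12 h. MYC-induced genes called ranged from 18 to 27, 22 to 30 and 31 to 40 against START, 5 to 17 and 2 to 11 for the steps, and 0 to 0, 1 to 4 and 0 to 1 for PCI. MYC-repressed genes called ranged from 7 to 9, 5 to 11 and 9 to 12 against START, 2 to 4 and 2 to 3 for the steps, and 0 to 1, 0 to 2 and 0 to 1 for PCI. Uncalled member values changed sign: against START, Mxd1 at 4 h ranged from -0.36 to 0.27 (0.14 without CTL 4 h replicate 1), Max at 8 h from -0.12 to 0.11, Mnt at 8 h from -0.51 to 0.12 and at 12 h from -0.50 to 0.13, and Mxi1 at 12 h from -0.22 to 0.25. From 8 to 12 h, Mxd1 ranged from -0.16 to 0.015, and Mnt reached -0.05, -0.07 and -0.15. The cause of these changes was not tested. With 3 libraries a group the SE of log2 differences had a median of 0.32 to 0.33, which limits what can be called; START and PCI at 4 h spread more between libraries (median SD of log2 CPM 0.44) than the other groups (0.23 to 0.28).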
